A study of Homo sapiens with 10 samples.

Results

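The genes described here are 38 genes of cholesterol and fatty acid synthesis, chosen by name: 7 enzymes of the mevalonate pathway, 11 enzymes that make squalene or take it to cholesterol, 5 genes that sense sterols, 10 genes that make fatty acids and 5 genes that move sterols or control their uptake. Their expression was measured in LoVo cells, an established human line derived from a colorectal adenocarcinoma, on Affymetrix HG-U133 Plus 2.0 arrays, on which short DNA probes report the transcripts of most genes. The 3 groups were cells grown without serum and with 10 μM asymmetric dimethylarginine, a methylated arginine that inhibits nitric oxide synthases, for 96 h (ADMA, 4 arrays), cells grown without serum for 96 h (SS, 3 arrays) and cells kept in 10% fetal bovine serum (C, 3 arrays). All were cultures of 1 line, and the labels call the arrays of a group biological replicates. Of the 38 genes, 35 had a probe set whose annotation names 1 gene, out of 19775 such genes on the array, and each gene was read from its probe set with the highest mean. FDFT1, CYP51A1 and FADS1 were not analysed here. Of the 35, 33 passed the filter on low signal with which 12342 genes were tested; ABCA1 and NPC1L1, both sterol transporters, did not.

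Cells make cholesterol from acetyl-CoA. Enzymes of the mevalonate pathway build isoprenoid units, squalene is put together from these, and a further set of enzymes closes the rings and trims lanosterol to cholesterol. Fatty acids are built from the same acetyl-CoA by acetyl-CoA carboxylase and fatty acid synthase, and are then lengthened and desaturated. Both routes are under the sterol regulatory element-binding proteins (SREBPs), made from SREBF1 and SREBF2: the escort protein SCAP carries them to the Golgi, where they are cut into active transcription factors, and the INSIG proteins hold SCAP back in the endoplasmic reticulum when sterols are plentiful.

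The stretches of 250 bases before the start of 5 of these genes are shown because MVD and SC5D had the largest differences of the sterol enzymes between serum-starved and control cells, SREBF2 encodes the SREBP best known for the sterol genes, and PMVK and ELOVL6 were the members lower in serum-starved cells. Sequences are those of RefSeq on GRCh38.p14, each read 5′ to 3′ on the strand of its gene. They cover chr16:88663092-88663341 on the minus strand for MVD, chr11:121292521-121292770 on the plus strand for SC5D (1 of its 2 starts), chr22:41832855-41833104 on the plus strand for SREBF2, chr1:154936720-154936969 on the minus strand for PMVK and chr4:110198616-110198865 on the minus strand for ELOVL6. Capitals mark every match, on either strand, to the sterol regulatory element TCACNCCAC, which SREBPs bind, and to the CCAAT box, which the factor NF-Y binds and which reads ATTGG on the other strand.
MVD: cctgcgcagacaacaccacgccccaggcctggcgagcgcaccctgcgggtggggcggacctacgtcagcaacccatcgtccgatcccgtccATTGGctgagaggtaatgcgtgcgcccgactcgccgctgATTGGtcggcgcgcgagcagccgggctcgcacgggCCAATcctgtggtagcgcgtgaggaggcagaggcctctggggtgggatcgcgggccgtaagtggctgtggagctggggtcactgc
SC5D: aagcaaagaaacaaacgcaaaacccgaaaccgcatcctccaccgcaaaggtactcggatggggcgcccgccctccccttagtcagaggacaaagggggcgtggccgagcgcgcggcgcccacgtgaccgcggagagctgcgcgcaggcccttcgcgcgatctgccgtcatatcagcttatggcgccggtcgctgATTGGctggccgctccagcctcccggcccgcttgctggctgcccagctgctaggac
SREBF2: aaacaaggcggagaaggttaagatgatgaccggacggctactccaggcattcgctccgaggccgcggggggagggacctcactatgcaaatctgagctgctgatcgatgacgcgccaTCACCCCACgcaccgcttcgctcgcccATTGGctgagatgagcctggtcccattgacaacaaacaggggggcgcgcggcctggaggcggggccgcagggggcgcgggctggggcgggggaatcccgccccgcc
PMVK: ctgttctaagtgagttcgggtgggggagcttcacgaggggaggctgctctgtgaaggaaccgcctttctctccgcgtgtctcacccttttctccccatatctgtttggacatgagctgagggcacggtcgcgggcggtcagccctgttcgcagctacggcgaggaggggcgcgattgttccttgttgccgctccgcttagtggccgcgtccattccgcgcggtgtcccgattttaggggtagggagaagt
ELOVL6: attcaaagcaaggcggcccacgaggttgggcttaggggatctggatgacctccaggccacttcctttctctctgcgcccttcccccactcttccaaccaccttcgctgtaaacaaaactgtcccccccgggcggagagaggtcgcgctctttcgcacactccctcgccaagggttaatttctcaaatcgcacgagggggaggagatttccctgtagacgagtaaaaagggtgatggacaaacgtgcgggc
The window of SREBF2 held the sterol regulatory element at bases -133 to -125, counted back from the start, with a CCAAT box at bases -106 to -102, and that of MVD held 3 CCAAT boxes. Those of PMVK and ELOVL6 held neither, which says only that these letters are not in these windows. The annotated spans of PMVK and ELOVL6 reach further upstream, to chr1:154942658 and chr4:110199202. Each of these windows thus lies before a listed start but inside the span of its gene. Among the 38 genes, 33 had a start in the table, with 44 windows in all. The sterol regulatory element was in 1 of the 44 windows (2.27%), against 310 of 35116 windows of all genes (0.883%). The CCAAT box was in 27 of the 44 windows (61.4%), those of 23 genes, against 11240 of the 35116 (32%). Windows of a gene with several starts can overlap and the table of all genes also holds non-coding genes, so these shares are descriptions of the letters only.

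The deposited signals had the same trimmed mean on all 10 arrays, 500.1, but their medians were 91.9 to 98.1 in ADMA-treated, 87.5 to 90.7 in serum-starved and 60.7 to 73.1 in control cells. The 28S ribosomal RNA control probe set near the 5′ end gave 795 to 1052 with ADMA, 1345 to 2014 in serum-starved and 501 to 634 in control cells, and ACTB had 3′ to 5′ ratios of 1.02 to 1.05 with ADMA, 1.13 to 1.23 in serum-starved and 1.01 to 1.08 in control cells. Of 12 markers of colon epithelium 12 passed the filter on low signal, with a summed signal of 174041 to 199619 with ADMA, 133337 to 155258 in serum-starved and 99870 to 102094 in control cells. Of the markers of other cells that are rich in these genes, 1 of 6 for hepatocytes (CYP3A4) and 1 of 5 for adipocytes (CIDEC) passed it. The summed signal of the 6 hepatocyte markers was 511 to 723 with ADMA, 592 to 814 in serum-starved and 312 to 370 in control cells, and that of the 5 adipocyte markers 461 to 710 with ADMA, 433 to 471 in serum-starved and 98 to 202 in control cells. Of other lists 3 of 10 fibroblast, 1 of 7 endothelial and 3 of 7 leukocyte markers passed, the last with LYZ among them and a summed signal of 1680 to 2324 with ADMA, 4249 to 4889 in serum-starved and 635 to 980 in control cells. These measures move with the groups, and their part in the results was not tested. The number of arrays limits the precision of every value, and a signal from a whole culture cannot tell fewer expressing cells from less RNA per cell.

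Most genes of the set were higher in serum-starved than in control cells. Rises, falls and changes are named below only where limma gave a fold of at least 1.2 at a p under 0.01, adjusted after Benjamini and Hochberg over the 12342 genes. In serum-starved against control cells 24 of the 33 rose, 2 fell and 7 did not pass, where 30.3% of all genes tested rose and 27.3% fell. The median log2 difference of the 33 was 0.67, and that of all genes tested 0.07. With arrays centred on their medians 15 rose and 5 fell and the median of the 33 was 0.28, where that of all genes was -0.32. In ADMA-treated against serum-starved cells 7 rose, 5 fell and 21 did not pass, where 15.7% of all genes rose and 13.8% fell, and the median of the 33 was 0.06 as deposited but -0.05 with quantile normalization and -0.06 with arrays centred on their medians. In ADMA-treated against control cells 25 rose, 2 fell and 6 did not pass, where 26.6% of all genes rose and 23.2% fell, with a median of 0.68 for the 33 and 0.07 for all genes; with centring 14 rose and 6 fell, with medians of 0.17 and -0.44. By role, 6 of 7 mevalonate genes rose and 1 fell there, 9 of 9 between squalene and cholesterol rose, 3 of 5 sensing genes rose and 1 fell, 6 of 9 of fatty acid synthesis rose and 1 of 3 of sterol transport rose; the median of the sensing genes, 0.44, was -0.07 with centring. The 3 comparisons share arrays, so they are not independent of each other.

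**Figure D1:**
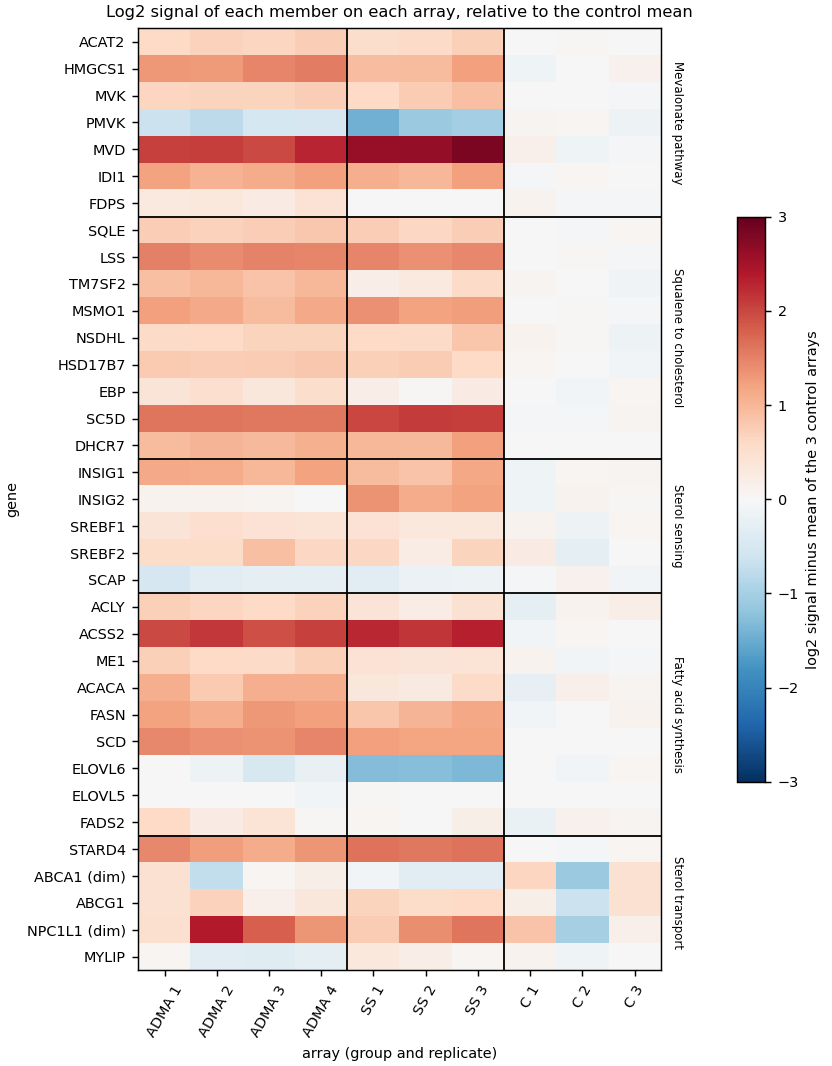
Log2 signal of the 35 genes with a probe set (rows, in the order of the pathway) on the 10 arrays (columns: ADMA, SS, C), minus the mean of the 3 control arrays, red for higher and blue for lower; the 2 genes under the filter on low signal are marked dim. MVD, SC5D, ACSS2 and STARD4 are among the genes that are red on all SS and ADMA arrays. INSIG2 is red on the 3 SS arrays and near 0 on the 4 ADMA arrays, and PMVK and ELOVL6 are blue on the SS arrays.

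Of the 7 mevalonate pathway genes, 5 rose and 1 fell in serum-starved cells, and 4 rose and 2 fell with centring. Between ADMA-treated and serum-starved cells 3 rose and 1 fell. MVD, which decarboxylates mevalonate diphosphate, had signals of 1230, 1239, 1177 and 1447 with ADMA, of 1818, 1840 and 2116 in serum-starved cells and of 331, 273 and 289 in control cells. The 3 groups did not overlap, with the serum-starved arrays highest and the control arrays lowest. MVD rose 6.47-fold in serum-starved against control cells, with a log2 difference of 2.69 (standard error, SE, 0.10, 95% confidence interval 2.47 to 2.92, adjusted p = 1.98e-11). It fell 1.51-fold with ADMA against serum-starved cells, with a log2 difference of -0.60 (SE 0.10, adjusted p = 0.000183), and was still 4.28-fold above control cells.

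PMVK, the kinase that acts just before MVD in the same pathway, went the other way. Its signals were 724, 655, 791 and 806 with ADMA, 418, 525 and 562 in serum-starved cells and 1207, 1177 and 1030 in control cells. All 3 serum-starved arrays lay below all 4 ADMA arrays, and these below all 3 control arrays. PMVK fell 2.28-fold in serum-starved against control cells, with a log2 difference of -1.19 (SE 0.12, adjusted p = 4.98e-07). It rose 1.49-fold with ADMA against serum-starved cells, at 0.57 (SE 0.11, adjusted p = 0.00087), and stayed below control cells at -0.61 (SE 0.11, adjusted p = 0.000241).

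IDI1, which isomerizes isopentenyl diphosphate, had 16209, 14600, 15297 and 16674 with ADMA, 15004, 14115 and 16492 in serum-starved cells and 6806, 7419 and 7010 in control cells. The ADMA and serum-starved arrays overlapped, and all of them lay above the control arrays. IDI1 rose 2.14-fold in serum-starved against control cells, at a log2 difference of 1.10 (SE 0.07, adjusted p = 2.6e-09). With ADMA it did not pass the test against serum-starved cells, at 0.05 (95% confidence interval -0.09 to 0.18). Its probe set is of a kind that can also bind other transcripts. Of the other IDI1 probe sets of that kind, a bright one gave 1.18 and a dim one 0.04 in serum-starved against control cells. In a probe set without that mark, dim at a mean log2 signal of 6.55, the difference was 0.91 and did not pass (adjusted p = 0.0251).

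Among the other mevalonate genes, HMGCS1, the cytosolic HMG-CoA synthase, rose in serum-starved cells by 1.04 on the log2 scale (SE 0.09), with arrays of 7378 to 9016 against 3499 to 4221 in control cells. The mevalonate kinase MVK rose by 0.75 (SE 0.07) and ACAT2, the thiolase that joins acetyl-CoA units, by 0.60 (SE 0.06). HMGCS1 also rose with ADMA against serum-starved cells, by 0.36 (SE 0.09, adjusted p = 0.00409), at 9380 to 11180 against 7378 to 9016. This call was lost without any of SS 1, SS 2, ADMA 3 and ADMA 4 (0.31 to 0.33, adjusted p = 0.0124 to 0.0254), and another HMGCS1 probe set read -0.16. FDPS, the farnesyl diphosphate synthase, did not pass in serum-starved against control cells, at -0.01 as deposited (95% confidence interval -0.14 to 0.12), but passed as lower with centring, at -0.40 (adjusted p = 0.00044). It rose with ADMA against serum-starved cells by 0.33 (SE 0.06, adjusted p = 0.000323), with arrays of 9254 to 10476 against 7637 to 7806. This call was lost with quantile normalization, at 0.23 and under the fold minimum, and with centring, at 0.22 (adjusted p = 0.0497).

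Of the 9 tested genes between squalene and cholesterol, 8 rose and none fell in serum-starved cells, and with centring 5 rose and none fell. Between ADMA-treated and serum-starved cells 2 rose, 1 fell and 6 did not pass. SC5D, the desaturase that acts on lathosterol, had 8590, 8531, 8400 and 8432 with ADMA, 11332, 12004 and 11930 in serum-starved cells and 2728, 2748 and 2969 in control cells. The 3 groups did not overlap and the ADMA arrays lay between the others. SC5D rose 4.18-fold in serum-starved against control cells, at a log2 difference of 2.06 (SE 0.05, adjusted p = 5.83e-13). It fell 1.38-fold with ADMA against serum-starved cells, at -0.47 (SE 0.05, adjusted p = 4.66e-06), although a dimmer SC5D probe set gave -0.12 there and did not pass.

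LSS, the synthase that closes the rings of lanosterol, had 10669, 10073, 10582 and 10448 with ADMA, 10411, 9736 and 10153 in serum-starved cells and 3745, 3868 and 3666 in control cells. The serum-starved and ADMA arrays overlapped and lay well above the control arrays. LSS rose 2.69-fold in serum-starved against control cells, at 1.43 (SE 0.05, adjusted p = 1.33e-11). Its difference with ADMA against serum-starved cells was 0.05 (95% confidence interval -0.06 to 0.15). The dimmer LSS probe sets gave 0.19 and -0.69 there, and neither passed in a fit over all probe sets (adjusted p = 0.29 and 0.0108).

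MSMO1, a methylsterol oxidase, had 17098, 16023, 14048 and 15970 with ADMA, 18898, 16653 and 17318 in serum-starved cells and 7345, 7479 and 6953 in control cells. ADMA 1 lay within the range of the serum-starved arrays, and the other 3 ADMA arrays lay below it. MSMO1 rose 2.43-fold in serum-starved against control cells, at 1.28 (SE 0.07, adjusted p = 9.29e-10). Its difference of ADMA-treated against serum-starved cells was -0.16 (SE 0.07, adjusted p = 0.0674) as deposited and passed as lower with quantile normalization, at -0.33 (adjusted p = 0.00107).

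DHCR7, a reductase of the last steps to cholesterol, rose in serum-starved cells by 1.07 (SE 0.07), and SQLE, the squalene epoxidase, by 0.70 (SE 0.05). HSD17B7, a ketosteroid reductase, and NSDHL, which removes carbons from the sterol ring with it, rose by 0.70 (SE 0.07) and 0.67 (SE 0.09). In these 4 genes the difference of ADMA against serum-starved cells lay between -0.07 and 0.07 and did not pass. The only probe set of HSD17B7 is, like the one used for IDI1, of a kind that can also bind other transcripts. TM7SF2, a sterol reductase, rose with ADMA as well as in serum-starved cells. Its signals were 2218 to 2457 with ADMA, 1407 to 1805 in serum-starved and 1145 to 1293 in control cells, with no overlap. TM7SF2 rose by 0.59 (SE 0.08, adjusted p = 6.71e-05) with ADMA against serum-starved cells. In serum-starved against control cells it rose by 0.35 (adjusted p = 0.00293), a call lost without C 3 (0.31, adjusted p = 0.0161) and without SS 3 (0.25, adjusted p = 0.0162). The sterol isomerase EBP did not pass in serum-starved cells, at 0.16 (SE 0.07, adjusted p = 0.0643) as deposited. It passed there as higher with quantile normalization, at 0.34 (adjusted p = 3.3e-05), and with its probe sets averaged, at 0.59 (adjusted p = 3.64e-05), and read -0.23 with centring. With ADMA against serum-starved cells it rose by 0.28 (SE 0.07, adjusted p = 0.00382), a call lost without SS 2 (0.21, adjusted p = 0.0268), ADMA 2 (0.26, adjusted p = 0.0131) or ADMA 4 (0.25, adjusted p = 0.0118) and with both other scalings. The call was also lost with its probe sets averaged, at 0.04 (adjusted p = 0.703). The next brightest EBP probe set read 0.01 there (adjusted p = 0.934 in a fit over all probe sets).

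**Figure D2:**
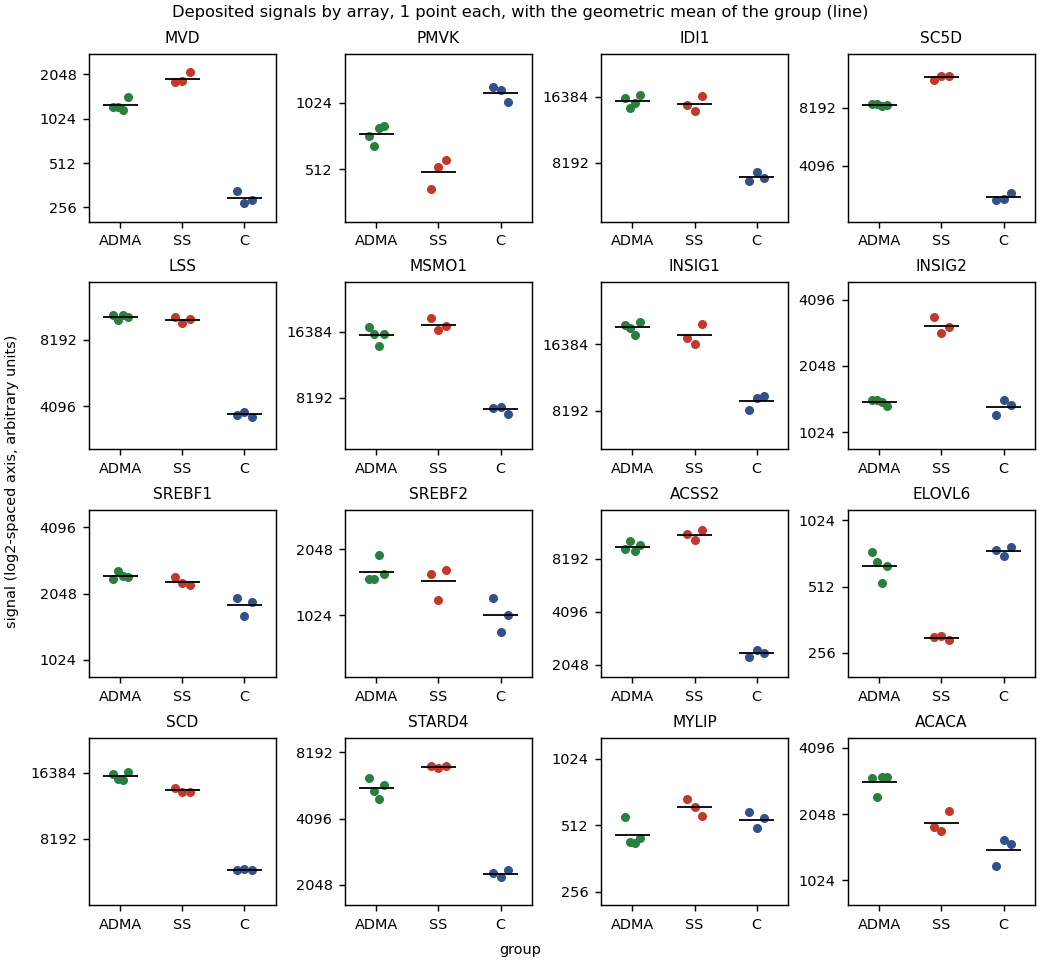
Deposited signal (vertical, arbitrary units on a log2-spaced axis) of 16 genes on each array, with 1 point per array and a line at the geometric mean of the group, for ADMA (green, 4 arrays), SS (red, 3) and C (blue, 3); ACACA was added after its values were seen. MVD, SC5D, ACSS2 and STARD4 are highest in SS and lowest in C, INSIG2 is high in SS alone of the 3 groups, and ELOVL6 and PMVK are lowest in SS.

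The sterol sensing genes rose in 4 of 5 cases in serum-starved cells, where with centring 2 rose and 1 fell. With ADMA against serum-starved cells 1 fell and none rose. INSIG2, which like INSIG1 holds SCAP in the endoplasmic reticulum, had 1441, 1440, 1407 and 1346 with ADMA, 3426, 2902 and 3059 in serum-starved cells and 1229, 1427 and 1359 in control cells. The 3 serum-starved arrays stood above all others, and the ADMA and control arrays overlapped. INSIG2 rose 2.34-fold in serum-starved against control cells, at 1.22 (SE 0.08, adjusted p = 3.72e-09). It fell 2.22-fold with ADMA against serum-starved cells, at -1.15 (SE 0.07, adjusted p = 4.4e-08). Against control cells the ADMA arrays differed by 0.08 as deposited (95% confidence interval -0.08 to 0.23), but by -0.43 with arrays centred on their medians (adjusted p = 0.00182).

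INSIG1 had 19965, 19469, 18037 and 20752 with ADMA, 17542, 16412 and 20200 in serum-starved cells and 8269, 9373 and 9529 in control cells. The ADMA and serum-starved arrays overlapped above the control arrays. INSIG1 rose 1.99-fold in serum-starved against control cells, at 0.99 (SE 0.08, adjusted p = 4.46e-08), and read 0.12 with ADMA against serum-starved cells (95% confidence interval -0.04 to 0.28).

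Both genes of the SREBPs rose in serum-starved cells. SREBF2 had 1496, 1504, 1927 and 1572 with ADMA, 1583, 1203 and 1638 in serum-starved cells and 1226, 859 and 1030 in control cells. SS 2 lay below the highest control array, so these groups overlapped. SREBF2 rose 1.42-fold in serum-starved against control cells, at 0.51 (SE 0.14, adjusted p = 0.00518). This call was lost without C 2 (0.38, adjusted p = 0.0323), C 3 (0.51, adjusted p = 0.0149), SS 1 (0.45, adjusted p = 0.0236) or SS 3 (0.43, adjusted p = 0.0264). It was also lost with centring, at 0.12 (adjusted p = 0.476). The dimmer SREBF2 probe sets, in a fit over all probe sets, passed as higher there as deposited, at 0.64 (adjusted p = 1.55e-05) and 1.40 (adjusted p = 5.24e-05). SREBF1 had 2389, 2591, 2451 and 2434 with ADMA, 2444, 2279 and 2246 in serum-starved cells and 1963, 1624 and 1886 in control cells. The control arrays lay below all others, which overlapped each other. SREBF1 rose 1.28-fold in serum-starved against control cells, at 0.35 (SE 0.08, adjusted p = 0.000779), but with arrays centred on their medians the difference was -0.04. Neither passed with ADMA against serum-starved cells, at 0.15 for SREBF2 (95% confidence interval -0.14 to 0.43) and 0.09 for SREBF1 (95% confidence interval -0.07 to 0.24). SCAP did not pass in serum-starved against control cells, at -0.22 (SE 0.10, adjusted p = 0.0563) as deposited, but passed as lower with centring, at -0.61 (adjusted p = 0.000331). Of the 5 sensing genes it was the one that fell in ADMA-treated against control cells, at -0.34 (SE 0.09, adjusted p = 0.0041), with 702 to 831 against 949 to 1104, a call lost without C 2 (-0.27, adjusted p = 0.0297) or ADMA 1 (-0.29, adjusted p = 0.0129).

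**Figure D3:**
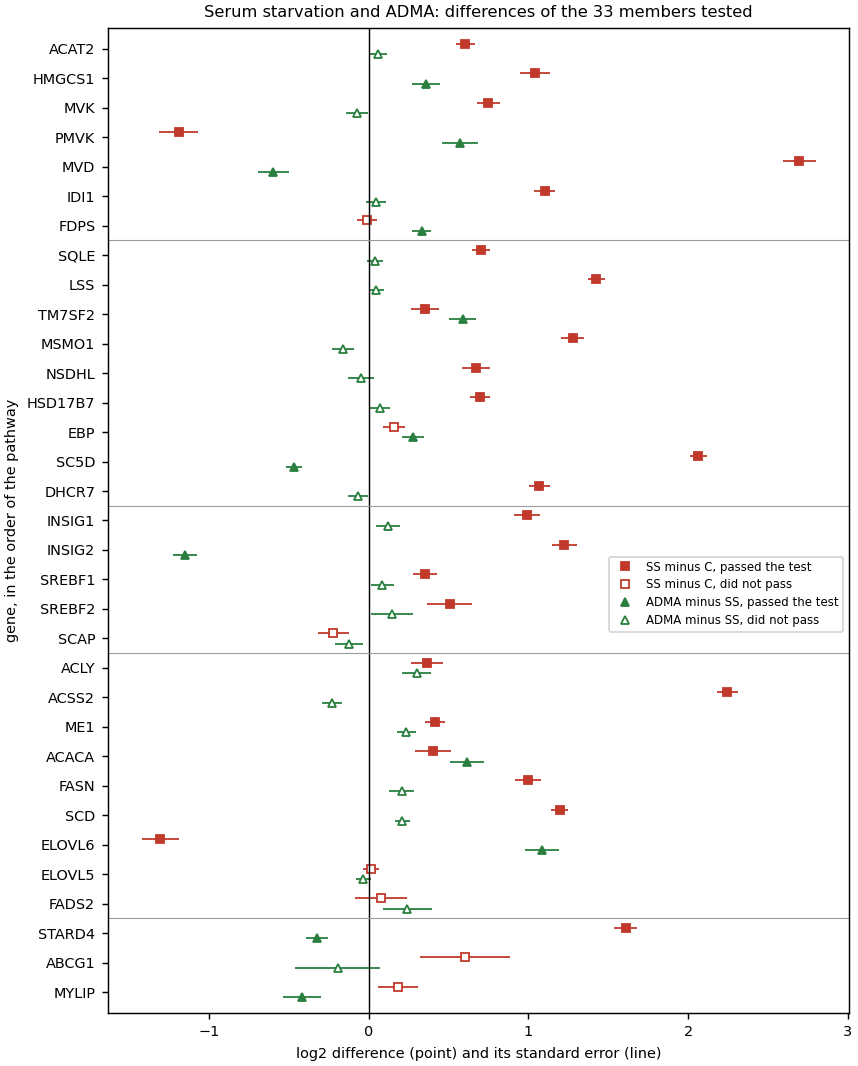
Log2 differences of the 33 genes tested (points, with lines of 1 standard error, SE), serum-starved minus control cells (red squares) and ADMA-treated minus serum-starved cells (green triangles), filled where the gene passed the test. In SS minus C most squares lie right of 0, up to 2.69 for MVD, with PMVK at -1.19 and ELOVL6 at -1.30; in ADMA minus SS the triangles run between -1.15 for INSIG2 and 1.08 for ELOVL6, and the median of the 33 genes there changes sign with the scaling of the arrays.

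Of the 9 tested genes of fatty acid synthesis, 6 rose and 1 fell in serum-starved cells, with a median log2 difference of 0.40. With centring 3 rose and 2 fell and the median was 0.01. Between ADMA-treated and serum-starved cells 2 rose and none fell. ACSS2, which makes cytosolic acetyl-CoA from acetate, had 9336, 10304, 9070 and 9799 with ADMA, 11386, 10510 and 11980 in serum-starved cells and 2265, 2495 and 2384 in control cells. The 3 groups did not overlap. ACSS2 rose 4.74-fold in serum-starved against control cells, at 2.24 (SE 0.07, adjusted p = 1.67e-12). With ADMA against serum-starved cells it read -0.23 (SE 0.06, adjusted p = 0.00807), short of the 1.2-fold minimum at 1.17-fold lower, and passed as lower with quantile normalization (-0.35) and with centring (-0.35), as well as without SS 2 (-0.28).

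ELOVL6, which lengthens palmitate to stearate, had 734, 665, 531 and 637 with ADMA, 302, 306 and 293 in serum-starved cells and 752, 704 and 773 in control cells. The 3 serum-starved arrays lay within a narrow range below all others, and ADMA 1 lay within the range of the control arrays. ELOVL6 fell 2.47-fold in serum-starved against control cells, at -1.30 (SE 0.12, adjusted p = 1.28e-07). It rose 2.12-fold with ADMA against serum-starved cells, at 1.08 (SE 0.11, adjusted p = 2.62e-06). Against control cells the ADMA arrays read -0.22 as deposited (95% confidence interval -0.45 to 0.01) and passed as lower with centring, at -0.73 (adjusted p = 1.64e-05).

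SCD, the desaturase that makes oleate from stearate, had 16100, 15303, 15202 and 16434 with ADMA, 14018, 13430 and 13412 in serum-starved cells and 5902, 6016 and 5930 in control cells. The 3 groups did not overlap, with the ADMA arrays highest. SCD rose 2.29-fold in serum-starved against control cells, at 1.19 (SE 0.05, adjusted p = 6.42e-11). The difference of 0.21 with ADMA against serum-starved cells (SE 0.05, adjusted p = 0.00267) was short of the fold minimum at 1.16-fold.

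FASN, the fatty acid synthase, rose in serum-starved cells, at a log2 difference of 0.999 (SE 0.08), with arrays of 4114 to 5168 against 2176 to 2485 in control cells. With its probe sets averaged, including a dim one under the filter, FASN read 0.26 there and did not pass (adjusted p = 0.469). With ADMA against serum-starved cells it read 0.21 (adjusted p = 0.043) and passed without SS 3, at 0.28 (adjusted p = 0.00982). ME1, the malic enzyme that supplies NADPH, rose by 0.41 (SE 0.06) in serum-starved cells as deposited. The difference was 0.02 with centring (adjusted p = 0.823) and, as deposited, 0.50 in the other probe set past the filter. With its probe sets averaged, including a dim one under the filter, ME1 read 0.76 and did not pass (adjusted p = 0.0146). Its 0.24 with ADMA was short of the fold minimum. ACLY, which splits citrate into acetyl-CoA, rose by 0.37 (SE 0.10, adjusted p = 0.00442) in serum-starved cells, a call lost without C 1 (0.22, adjusted p = 0.0178), SS 1 (0.35, adjusted p = 0.0163) or SS 3 (0.31, adjusted p = 0.0201). ACLY read 0.30 in ADMA-treated against serum-starved cells (adjusted p = 0.0168). It passed there without C 1, at 0.30 (adjusted p = 0.00165), and with its probe sets averaged, at 0.32 (adjusted p = 0.000933). It also passed with array weights and with the arrays of the 2 groups alone. With quantile normalization it read 0.10 and with centring 0.18, and it passed in neither. ELOVL5 and FADS2, an elongase and a desaturase of polyunsaturated fatty acids, did not pass in any comparison as deposited. ELOVL5 differed by 0.01 in serum-starved against control cells (95% confidence interval -0.09 to 0.12), but passed as lower with centring, at -0.38 (adjusted p = 0.000939).

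ACACA, the acetyl-CoA carboxylase, rose with ADMA in its brightest probe set but was read differently by another, and its values are given after they were seen. The brightest had 2976, 2437, 3016 and 3013 with ADMA, 1785, 1708 and 2105 in serum-starved cells and 1194, 1561 and 1497 in control cells. The 3 groups did not overlap. ACACA rose by 0.62 with ADMA against serum-starved cells (SE 0.11, adjusted p = 0.000307). In serum-starved against control cells it rose by 0.40 (SE 0.11, adjusted p = 0.00577), a call lost without C 1 (0.28, adjusted p = 0.0354) or SS 3 (0.31, adjusted p = 0.0326). The dimmer ACACA probe set gave -1.10 in serum-starved against control cells (SE 0.11, adjusted p = 9.88e-07) and 0.22 with ADMA against serum-starved cells, which did not pass.

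Of the 3 tested genes that move sterols or control their uptake, 1 rose in serum-starved cells, and with ADMA against serum-starved cells 2 fell. STARD4, a soluble carrier of cholesterol, had 6279, 5479, 5032 and 5813 with ADMA, 7093, 6925 and 7118 in serum-starved cells and 2314, 2227 and 2386 in control cells. The 3 groups did not overlap and the ADMA arrays lay between the others. STARD4 rose 3.05-fold in serum-starved against control cells, at 1.61 (SE 0.07, adjusted p = 9.88e-11). It fell 1.25-fold with ADMA against serum-starved cells, at -0.32 (SE 0.07, adjusted p = 0.00144).

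MYLIP, a ubiquitin ligase that marks lipoprotein receptors for degradation, had 561, 429, 424 and 446 with ADMA, 670, 619 and 565 in serum-starved cells and 586, 495 and 551 in control cells. ADMA 1 lay just under the lowest serum-starved array and within the control arrays, and the other 3 ADMA arrays were lower than all others. MYLIP fell 1.33-fold with ADMA against serum-starved cells, at -0.42 (SE 0.12, adjusted p = 0.00973). The call rests on the choice of arrays: it was lost without any 1 of 8 arrays, all but SS 3 and ADMA 1, with adjusted p values of 0.0106 without C 2 to 0.0509 without SS 1 and differences of -0.36 without SS 1 to -0.42. The other MYLIP probe sets past the filter gave 0.03 to 0.31 and did not pass. In serum-starved against control cells MYLIP read 0.18 (95% confidence interval -0.08 to 0.45). ABCG1, which passes cholesterol out of the cell, did not pass in serum-starved against control cells, at 0.61 (95% confidence interval 0.00 to 1.21, adjusted p = 0.0708), with arrays of 105 to 151 with ADMA, 137 to 149 in serum-starved and 60.3 to 129 in control cells. ABCA1, another exporter, had 36.7 to 84.0 with ADMA, 48.9 to 58.1 in serum-starved and 28.4 to 96.1 in control cells, below the background level on 2 of 4 ADMA, 1 of 3 serum-starved and 1 of 3 control arrays. NPC1L1, which takes up dietary cholesterol, was below background on 1 of 4 ADMA, 1 of 3 serum-starved and 3 of 3 control arrays.

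Many of the smaller differences depended on the scaling of the arrays. Centring each array on its median moved the median log2 difference of all genes tested to -0.32 in serum-starved against control cells, against 0.07 as deposited, and to -0.44 in ADMA-treated against control cells, against 0.07. The share of calls in the set that were rises in serum-starved against control cells was 92.3% as deposited, 92.6% with quantile normalization (25 rose, 2 fell) and 75.0% with centring (15 rose, 5 fell). Over all genes it was 52.6% as deposited and 48.7% with quantile normalization, and with centring 2014 rose and 5184 fell. In ADMA-treated against serum-starved cells it was 58.3% as deposited, 36.4% with quantile normalization (4 rose, 7 fell) and 40.0% with centring (4 rose, 6 fell), where over all genes it was 53.2, 52.0 and 30.1%. In ADMA-treated against control cells it was 92.6% in the deposited values and with quantile normalization, and 70.0% with centring (14 rose, 6 fell), where over all genes it was 53.5, 48.4 and 16.5%. Within the set, the ADMA against serum-starved medians of the mevalonate, squalene to cholesterol and sensing genes, 0.06, 0.04 and 0.09 as deposited, were -0.05, -0.05 and -0.07 with quantile normalization. That of fatty acid synthesis was 0.24 as deposited, 0.13 with quantile normalization and 0.12 with centring, and that of sterol transport -0.32, -0.38 and -0.44. Of the 26 calls between serum-starved and control cells, 17 kept their direction and call in both other scalings; ACAT2 (0.21), TM7SF2 (-0.04), NSDHL (0.28), HSD17B7 (0.31), SREBF1 (-0.04), SREBF2 (0.12), ACLY (-0.02), ME1 (0.02) and ACACA (0.01) did not pass with centring. Of the 12 calls between ADMA-treated and serum-starved cells, 9 were kept, and HMGCS1, FDPS and EBP passed in neither other scaling. Of the 27 between ADMA-treated and control cells, 16 were kept.

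**Figure D4:**
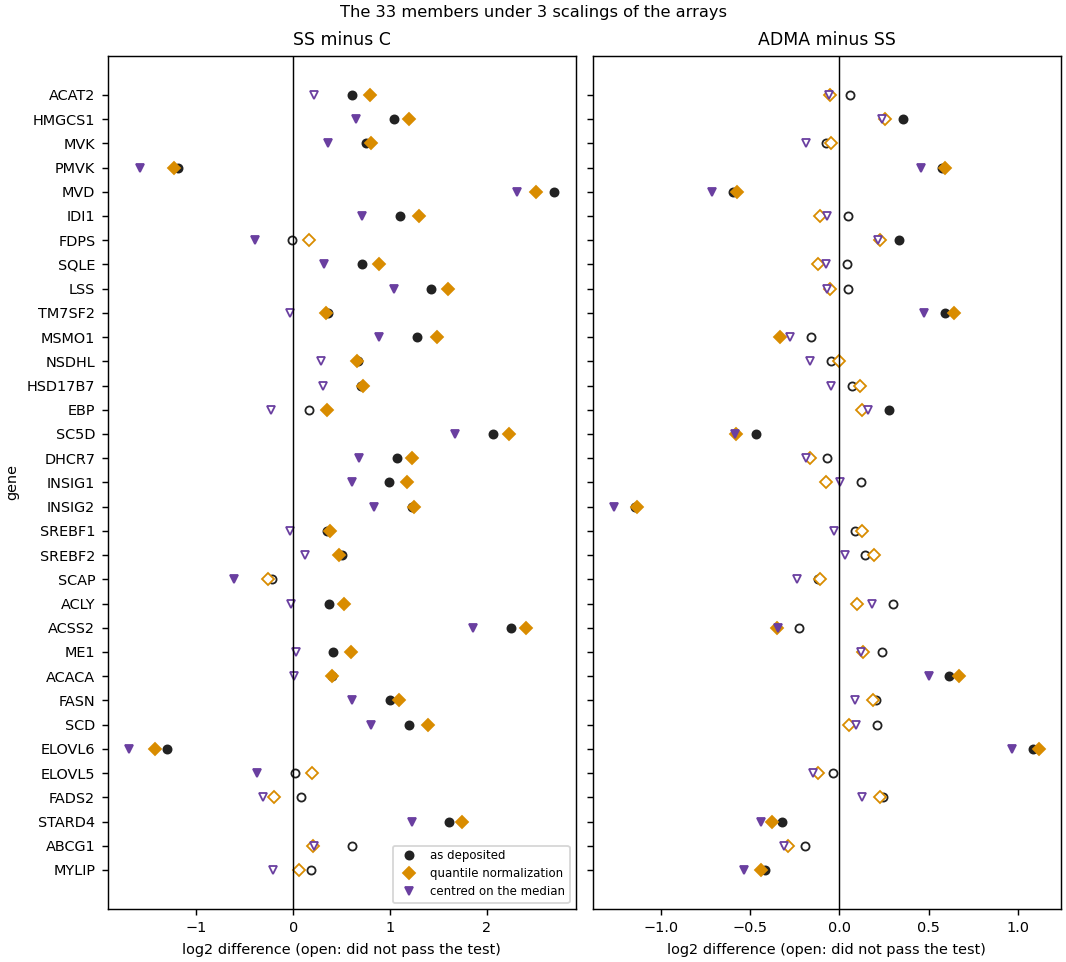
Log2 differences of the 33 genes tested, SS minus C (left) and ADMA minus SS (right), as deposited (black circles), with quantile normalization (orange diamonds) and with arrays centred on their medians (purple triangles); open symbols did not pass the test. Centring shifts every gene to the left in both panels, MVD, SC5D, ACSS2 and STARD4 keep rises in SS minus C in all 3, and in ADMA minus SS the many genes near 0 change sign between scalings while ELOVL6 and INSIG2 do not.

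Most genes with several probe sets were read alike by them in serum-starved cells. Of 19 genes with more than 1 probe set past the filter, 13 had the same call in all of them in serum-starved against control cells, 11 in ADMA-treated against serum-starved cells and 15 in ADMA-treated against control cells, in a fit over all probe sets. Opposite calls occurred in ACACA alone, in the comparisons with control cells. ELOVL6 read -1.30, -0.64 and -1.02 in its 3 probe sets in serum-starved against control cells, and 1.08, 0.73 and 1.28 with ADMA against serum-starved cells, though the probe set that gave -0.64 and 0.73 passed neither test (adjusted p = 0.0186 and 0.0117). SCD read 1.19 to 1.85 in 4 probe sets in serum-starved against control cells, all of which passed.

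**Figure D5:**
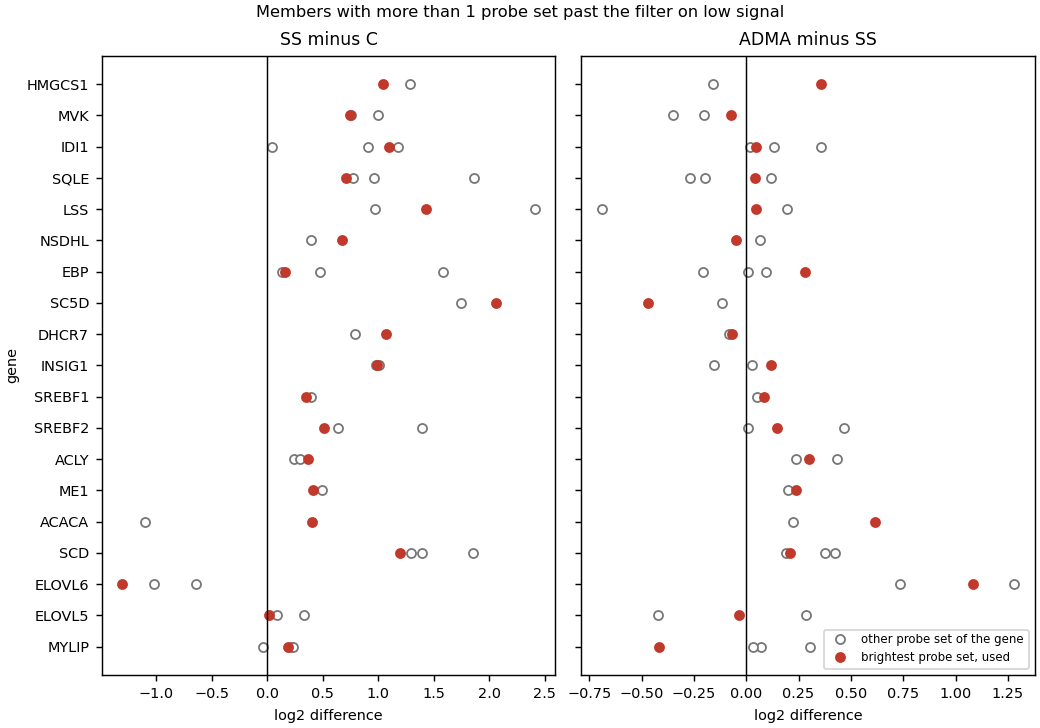
Log2 differences of each probe set of the 19 genes with more than 1 past the filter on low signal, SS minus C (left) and ADMA minus SS (right), with the brightest probe set, which was used, in red and the others open. In SS minus C the ACACA probe sets lie on opposite sides of 0, at 0.40 and -1.10. In ADMA minus SS those of several genes do. Among these are HMGCS1 (0.36 and -0.16), MYLIP (-0.42 against 0.03 to 0.31) and LSS (0.05, 0.19 and -0.69).

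Genes next to these pathways but outside the set were called in both directions, where 30.3% of all genes tested rose and 27.3% fell. Of 25 tested genes of sterol trafficking, isoprenoid use and SREBP processing, out of 28 listed, 6 rose and 7 fell in serum-starved against control cells, with a median log2 difference of 0.00 (-0.0014), counts close to the share over all genes. NPC1, which releases cholesterol from lysosomes, rose by 2.21 (SE 0.09), while PDSS1, which makes the ubiquinone side chain, read -1.97 (SE 0.12), and SCARB1, a lipoprotein receptor, -1.26 (SE 0.07), and both fell. Of 27 tested genes of fatty acid activation, lipid assembly and lengthening, out of 31 listed, 11 rose and 7 fell, with a median of -0.04. LPIN1, a phosphatidate phosphatase, rose by 2.03 (SE 0.06) and ACSL5, an acyl-CoA synthetase, by 1.79 (SE 0.07), while TECR, the last enzyme of the elongation cycle, fell at -1.18 (SE 0.08). With centring the counts were 2 higher and 13 lower of the 25, and 6 higher and 13 lower of the 27. Over all 12342 genes tested, centring gave 2014 higher and 5184 lower.

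With ADMA against serum-starved cells 8 of the 25 rose and 3 fell, and 3 of the 27 rose and 6 fell, where 15.7% of all genes rose and 13.8% fell. PDSS1 rose by 0.93 (SE 0.11), SCARB1 by 0.54 (SE 0.07) and TECR by 0.54 (SE 0.07). NPC1, at -0.46 (SE 0.09), LPIN1, at -0.34 (SE 0.05), and ACSL5, at -0.63 (SE 0.07), fell. Both comparisons use the serum-starved arrays.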

How the data were processed

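LoVo cells were profiled on 10 Affymetrix HG-U133 Plus 2.0 arrays. The authors made the deposited intensity of each of 54675 probe sets with MAS 5.0, on a linear scale, with the same trimmed mean (without 2% at each end) on every array; the tool version is not given in the sources used here. The members and the other gene lists were chosen with earlier results of these data known.

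Intensities were taken to the log2 scale here, with nothing added. Genes were named from the 41091 probe sets with 1 symbol in the platform annotation, updated through Entrez IDs; 1801 carry several symbols, 11721 none and 62 are controls. The probe set with the highest mean over the 10 arrays stood for its gene, and genes whose mean log2 signal was at least 6.25 (a signal of 76.3), the median over all probe sets, were tested. The 3 groups entered 1 linear model fitted with limma 3.58.1 (R 4.3.3), whose two-sided moderated tests used a prior variance that follows intensity, and p-values of the 12342 genes were adjusted by the Benjamini-Hochberg method. The thresholds, 0.01 for the adjusted p and 1.2 for the fold, are those of the study's SAM analysis; SAM itself, and the study's filter on probes, were not used. The background level is the 95th percentile of the 27 Bacillus control probe sets of an array. The steps were tested on simulated data. There, of 67 genes changed by 0.5 on the log2 scale, 35.8 to 47.8% were called over the 3 comparisons. Of 67 changed by 1, 77.6 to 82.1% were called. A gene that did not pass is thus not shown to be unchanged.

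Full values were given for INSIG1, SREBF1, SREBF2 and, in each role, the 3 called members with the largest difference in serum-starved or ADMA-treated cells, or the brightest where none was called. Promoters are those of RefSeq. Python 3.11.15 with matplotlib 3.10.9 drew the figures. The alternatives tried were quantile normalization, centring on the median, no filter, no trend, array weights, the arrays of 2 groups alone, an adjusted p under 0.05 with no fold minimum, probe sets of a gene averaged, those marked as shared left out, a pseudocount of 16, dim signals taken at the background level, leaving out each array, and the replicate number as a block.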

Additional observations from a re-analysis of the deposited data

Results flagged for a closer look

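In each of the 35 genes the 4 ADMA arrays were examined for 1 array far from the other 3, by the gap to its nearest neighbour over the range of the group (Dixon's ratio, at its 95% critical value). Chance alone gives such a value in about 1 in 20 groups, and 2 of the 35 were past it. In ACACA the array ADMA 2 had a signal of 2437, against 2976, 3013 and 3016 on the other ADMA arrays, and a ratio of 0.937 on the log2 scale. In ELOVL5 the array ADMA 4 had 6900, against 7251 to 7318, and a ratio of 0.844. Without ADMA 2 or any other single array, ACACA kept its rise with ADMA against serum-starved cells, at 0.56 to 0.71, and ELOVL5 passed in no comparison.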

How the results depend on the processing

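Of the calls described, 15 of 26 between serum-starved and control cells, 7 of 12 between ADMA-treated and serum-starved cells and 13 of 27 between ADMA-treated and control cells were kept in every alternative that could test the gene. With arrays centred on their medians 15 genes rose and 5 fell in serum-starved against control cells and 14 rose and 6 fell with ADMA against control cells, and 4 rose with ADMA against serum-starved cells, as with quantile normalization (4). Centring also turned the sign of ACLY (-0.0241), SREBF1 (-0.0371), TM7SF2 (-0.0366), ELOVL5 (-0.38), EBP (-0.23), FADS2 (-0.31) and MYLIP (-0.20) in serum-starved against control cells and of EBP (-0.0682), FDPS (-0.18), INSIG2 (-0.43), SREBF1 (-0.0670), FADS2 (-0.19) and ABCG1 (-0.0948) in ADMA-treated against control cells. Quantile normalization turned FDPS (0.16) and FADS2 (-0.20) in serum-starved against control cells and ELOVL5 (0.07) and ABCG1 (-0.0846) in ADMA-treated against control cells. With ADMA against serum-starved cells both scalings turned ACAT2, IDI1, SQLE and LSS, centring also HSD17B7 and SREBF1, and quantile normalization also INSIG1, none of which passed as deposited. Without probe sets marked as shared, 20 of the 33 genes could be tested: 14 rose and 1 fell in serum-starved against control cells, 3 rose and 2 fell with ADMA against serum-starved cells, and 15 rose and 1 fell with ADMA against control cells, with HMGCS1 turned to -0.16 with ADMA against serum-starved cells. With a gene's probe sets averaged, 31 could be tested, 3 fell with ADMA against serum-starved cells, and ACACA (-0.35, serum-starved against control) and MYLIP (0.25, ADMA against serum-starved) changed sign. At an adjusted p under 0.05 with no fold minimum 11 rose and 6 fell with ADMA against serum-starved cells. The share over all genes at that threshold was not counted. Nor was it counted with probe sets left out or averaged, with 1 array left out or with the replicate block. With 1 array left out, 20 to 24 rose and 2 fell each time in serum-starved against control cells, 5 to 8 rose and 4 to 5 fell with ADMA against serum-starved cells, and 25 rose each time and 1 to 2 fell with ADMA against control cells. The cause of these changes was not tested, beyond the fewer genes tested where stated.

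Arrays with the same replicate number did not deviate together (correlations of deviations -0.07 to 0.10, none of 9 over 0.1). With so few arrays a group, these values cannot tell whether cultures of the same number were grown or handled together. The labels do not say either. With the replicate block 24 genes rose and 2 fell in serum-starved against control cells, 6 rose and 4 fell with ADMA against serum-starved cells, where EBP (0.25) and MYLIP (-0.40) no longer passed, and 25 rose and 2 fell with ADMA against control cells.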
